A study of Mus musculus with 12 samples.

Results

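The comparison described here sets the hearts of CHIP-altered mice against those of wild-type (WT) mice 5 days after doxorubicin (DOX). It uses 6 of the 12 expression arrays of the series, 3 per genotype, chosen by their titles, and all 45037 probe sets measured on them. Genes that the study itself lists as changed or shows in its array and qPCR panels were set aside, so that the description covers the rest. All mice were male C57BL/6J animals of 8 to 10 weeks by the labels. The WT DOX and CHIP-altered DOX groups received DOX at 15 mg/kg by intraperitoneal injection, and the WT no DOX and CHIP-altered no DOX groups, used here for side-by-side values, are labelled as untreated. The study's text gives another dose, another age and saline for the latter. CHIP-altered stands for the arrays whose titles say knockout and whose hearts the study describes as carrying a cardiac-specific CHIP transgene (CHIP-TG). The promoter of the transgene and the number of founder lines are not given in the sources used here, and neither is whether RNA of several hearts was pooled. The titles call the 3 arrays of a group biological replicates.

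CHIP, the carboxyl terminus of Hsp70-interacting protein, is encoded by Stub1 and is both a cochaperone and a ubiquitin ligase. It binds the chaperones Hsp70 and Hsp90 and marks their unfolded client proteins for the proteasome. DOX is an anthracycline against cancer that damages DNA and mitochondria, and its dose is limited by injury to the heart.

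Stub1 went against the title of the CHIP-altered arrays. On its brighter probe set intensity, given on a linear scale without units, was 1944, 1949.9 and 1930.1 on WT DOX replicates 1, 2 and 3 and 5561, 7998 and 8723 on CHIP-altered DOX replicates 1, 2 and 3. The second probe set read 1307, 1402 and 1093 in WT DOX hearts and 1255, 1146 and 1183 in CHIP-altered DOX hearts, so these groups overlapped. Every direction below is that of arrays labelled CHIP knockout on which Stub1 was higher, and per-array values are always given in the order of replicates 1, 2 and 3. The 3 Xist probe sets read between 4.96 and 24.8 on all 12 arrays, as in male tissue. The summed intensity of 12 cardiomyocyte markers was 164876 to 188103 in WT DOX hearts and 166634 to 170488 in CHIP-altered DOX hearts, and 0 of them had a mean under 32. Of 10 skeletal muscle markers, a tissue that could adhere to a dissected heart, 6 had a mean under 32. By average linkage over all probe sets, WT DOX replicate 2 and CHIP-altered no DOX replicate 3 each stood alone, and calls without the former are given below.

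After DOX, the CHIP-altered hearts (labelled CHIP knockout) had higher transcripts of the glycogen-binding protein Stbd1, the phospholipase Pla2g5, the transporters Slc16a7 and Slc38a3 and the secreted proteins Lum, Htra1 and Timp2, and lower transcripts of the Z-disc gene Myot, the muscle ribosomal protein gene Rpl3l and the methyltransferase gene Gnmt. In all, limma called 424 probe sets (adjusted p under 0.05), which is 0.941% of those tested. Of these 131 (0.291%) were higher and 293 (0.651%) lower. Besides Stub1 they name 324 genes outside the study's own lists, of which 98 were higher and 226 lower. At least a 1.5-fold difference was seen for 14 of the higher and 51 of the lower ones. Another 20 genes that passed are among those the study lists, and 40 of the probe sets name no gene or several. The 40 genes described next are the 20 highest and 20 lowest by log2 fold change among those outside the lists. For all of them the 3 values of each genotype did not overlap, which was a condition of being named.

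The number of calls rested on single arrays. When WT DOX replicate 1, 2 or 3 was dropped, limma called 106, 45 or 893 probe sets, and dropping CHIP-altered DOX replicate 1, 2 or 3 gave 524, 19 or 22. Of the 40 genes, 12, 6 and 38 were called without each WT DOX array and 29, 1 and 4 without each CHIP-altered DOX array. The 1 called without CHIP-altered DOX replicate 2 was Myot, so no raised gene was called there. Of the 6 called without WT DOX replicate 2, Abhd4 and Ppp1r14b were higher and Myot, Gnmt, Serpinb6b and Parp4 lower, and of the 14 other called members of the lists below Ube2d3 was the 1 still called. The calls also rest on the arrays without DOX, which share the estimate of the spread. Dropping WT no DOX replicate 1, 2 or 3 gave 259, 142 or 135 probe sets and dropping CHIP-altered no DOX replicate 1, 2 or 3 gave 248, 397 or 721, with 16 to 40 of the 40 genes called. All 40 had the same direction each time, which the condition of no overlap had fixed in advance. Without WT DOX replicate 2 their log2 fold changes were 0.81 to 1.14 times those over all arrays. When the model was fitted to the 6 DOX arrays only, with its fewer degrees of freedom, 2 probe sets were called and 0 of the 40 genes. With 3 arrays on each side, the smallest p that an exact permutation test allows is 0.1.

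To show what lies before the starts of genes that moved, the 250 bases upstream of the annotated start were read from RefSeq promoter entries (GRCm38.p6) for 5 of them, written 5′ to 3′ on the strand of the gene. Stbd1 had the largest rise, Pnpla7 and Tecrl were called after DOX and lay near 0 without it, while Hmgb2 and Cep128 hold the CCAAT and ETS letters counted below. Capitals mark matches on either strand to 8 motifs, and different motifs may overlap each other. Where matches to the same motif overlapped on a strand, as at the last GC box of Stbd1, the later match was not marked or counted. The GC box was searched as GGGCGG. The CCAAT box is the motif CCAAT itself. The ETS core was searched as CCGGAAG. The E-box was searched as CACGTG. The TATA box was searched as TATAAA. The ATF4 composite site, the NRF1 site and the MEF2 motif are given by name. The upstream windows lie at chr5:92602801-92603050 (plus strand) for Stbd1, chr2:24975783-24976032 (plus) for Pnpla7, chr5:83355196-83355445 (minus) for Tecrl, chr8:57511593-57511842 (plus) for Hmgb2 and chr12:91384410-91384659 (minus) for Cep128.
Stbd1: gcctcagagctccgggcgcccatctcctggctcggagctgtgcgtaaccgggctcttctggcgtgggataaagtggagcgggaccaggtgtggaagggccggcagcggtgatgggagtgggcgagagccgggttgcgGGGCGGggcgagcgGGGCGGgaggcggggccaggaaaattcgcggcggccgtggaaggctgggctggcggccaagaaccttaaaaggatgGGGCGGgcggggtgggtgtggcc
Pnpla7: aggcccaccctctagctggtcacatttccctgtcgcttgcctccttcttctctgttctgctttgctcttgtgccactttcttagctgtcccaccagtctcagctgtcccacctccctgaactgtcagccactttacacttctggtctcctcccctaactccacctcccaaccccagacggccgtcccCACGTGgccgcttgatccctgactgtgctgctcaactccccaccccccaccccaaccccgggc
Tecrl: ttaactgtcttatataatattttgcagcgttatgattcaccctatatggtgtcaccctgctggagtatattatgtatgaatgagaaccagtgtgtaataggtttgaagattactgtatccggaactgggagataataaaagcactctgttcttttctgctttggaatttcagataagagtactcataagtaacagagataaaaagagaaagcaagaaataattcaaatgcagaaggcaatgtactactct
Hmgb2: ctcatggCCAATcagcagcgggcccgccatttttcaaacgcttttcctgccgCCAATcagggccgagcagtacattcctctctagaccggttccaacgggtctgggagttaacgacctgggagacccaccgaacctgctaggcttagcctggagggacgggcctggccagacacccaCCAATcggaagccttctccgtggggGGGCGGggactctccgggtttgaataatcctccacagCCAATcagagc
Cep128: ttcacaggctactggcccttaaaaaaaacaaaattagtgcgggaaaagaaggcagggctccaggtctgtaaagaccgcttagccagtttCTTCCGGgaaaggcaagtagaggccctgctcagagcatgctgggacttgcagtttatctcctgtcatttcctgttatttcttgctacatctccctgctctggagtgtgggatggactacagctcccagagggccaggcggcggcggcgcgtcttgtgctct
Without overlapping matches to the same motif, the Stbd1 window holds 3 GC boxes and that of Pnpla7 an E-box. That of Hmgb2 holds 4 CCAAT boxes and a GC box and that of Cep128 an ETS core. None of the motifs is in the Tecrl window. Promoter entries were found for 77 of the higher genes called (106 entries) and 173 of the lower genes called (218 entries), and for 14452 genes of the array (18109 entries). The ETS core was in 9.43% of the entries of higher genes, 17.9% of those of lower genes and 10.1% of all. The GC box was in 51.9%, 61.5% and 48.3%, and the CCAAT box in 27.4%, 33.0% and 34.7%. The TATA box was in 9.43%, 5.96% and 8.81%, and the NRF1 site in 5.66%, 4.59% and 6.0%. For the E-box the shares were 9.43%, 8.26% and 7.38%. The ATF4 composite site was in 0.943%, 3.21% and 2.39%, and the MEF2 motif in 0%, 0.459% and 0.431%. Genes with several entries count more than once. The median GC content was 60.4% for both directions and 57.6% for all entries. A match is a description of the letters and not of a bound site.

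Among the genes of metabolism and transport, Stbd1, whose protein holds glycogen at intracellular membranes, had the largest rise after Stub1 in CHIP-altered hearts (labelled CHIP knockout). Its intensity was 172, 173 and 105 in WT DOX hearts and 543, 503 and 389.7 in CHIP-altered DOX hearts. The log2 fold change was 1.502 (SE 0.24, limma adjusted p = 0.032). Pla2g5, a phospholipase A2 that cells secrete, read 44.5, 45.4 and 105 in WT DOX hearts and 175, 254 and 242 in CHIP-altered DOX hearts. WT DOX replicate 3 stood well above the other WT hearts and still below every CHIP-altered heart, with a log2 fold change of 1.44 (adjusted p = 0.032). Slc16a7, the monocarboxylate transporter MCT2, which carries pyruvate and lactate, read 54, 62.4 and 40.2 and 147, 188 and 181. Slc38a3, a sodium-coupled glutamine transporter, read 158, 112 and 162 and 254, 247 and 266. The log2 fold changes of both transporters, 1.28 and 0.72, passed (adjusted p = 0.032 and 0.031). Without WT DOX replicate 2 the adjusted p of Stbd1, Pla2g5, Slc16a7 and Slc38a3 was 0.085, 0.11, 0.085 and 0.055.

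Other metabolic genes rose by less and on narrower spreads. Abhd4, a hydrolase of N-acyl phospholipids, read 1030.1, 1177 and 1098 in WT DOX hearts and 1855, 1802 and 1589 in CHIP-altered DOX hearts (labelled CHIP knockout). The log2 fold change of 0.65 (SE 0.08, limma adjusted p = 0.016) was still called without WT DOX replicate 2 (adjusted p = 0.043), and its other probe set was called too. Ak4, a mitochondrial adenylate kinase, read 206, 195 and 232 and 301, 319 and 345. Ggact, which breaks down gamma-glutamylamines left by crosslinked proteins, read 89.8, 88.1 and 99.5 and 133, 183 and 156. Both genes were called, with log2 fold changes of 0.54 and 0.60, while the 4 other Ak4 probe sets ranged from -0.0086 to 0.52 and were not. Apoe, the apolipoprotein that carries lipid between cells, read 696, 781 and 669 in WT DOX hearts and 1050.5, 1132 and 944 in CHIP-altered DOX hearts (log2 fold change 0.52, limma adjusted p = 0.032). Lyrm9, a protein of the mitochondrial LYR motif family, and Nudt6, a Nudix hydrolase, had log2 fold changes of 0.53 and 0.53. Pyurf stood at 0.52, with 1024, 1112 and 1139 in WT DOX hearts and 1497, 1648 and 1595 in CHIP-altered DOX hearts.

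**Figure D1:**
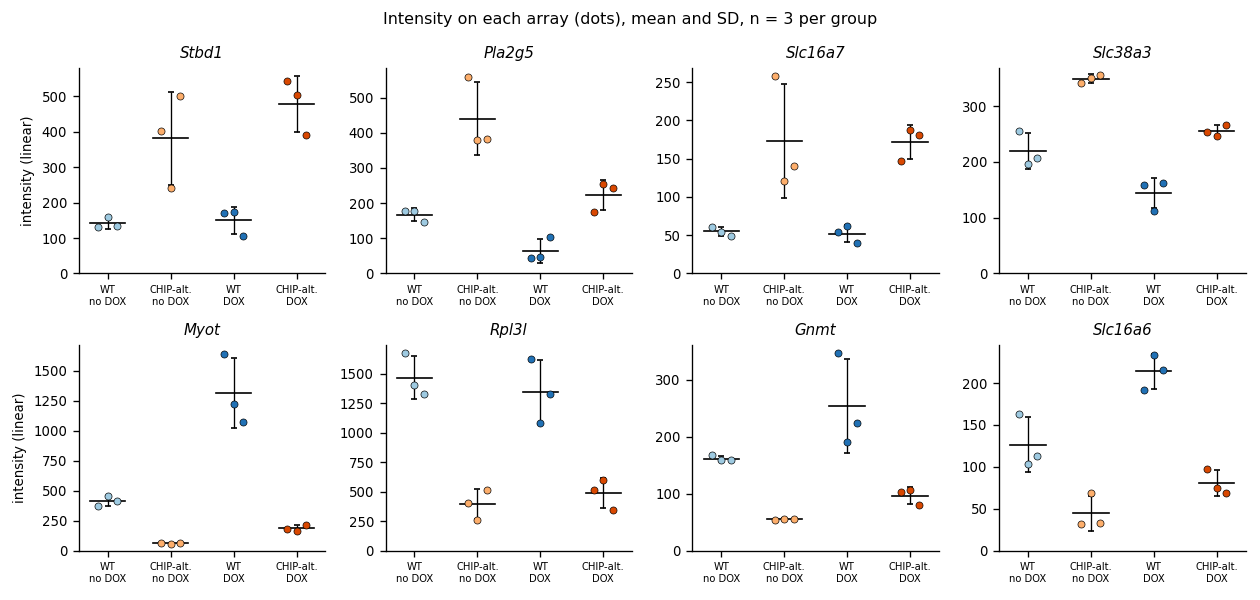
Intensity (linear scale, from 0) of 8 genes across the 12 arrays, by group. A dot is 1 array, and black lines are means and whiskers their SD, for 3 arrays each. In the upper row all CHIP-altered DOX arrays lie above all WT DOX arrays and in the lower row below them, and Myot has its 3 WT DOX values between 1075 and 1635 and its CHIP-altered DOX values between 161 and 212.

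Secreted and signaling genes made up much of the rest of the raised group. Lum, the collagen-binding proteoglycan lumican, read 549.8, 522 and 592 in WT DOX hearts and 959.7, 1450.3 and 1531 in CHIP-altered DOX hearts (labelled CHIP knockout), where replicate 1 was the lowest. Htra1, a secreted serine protease, read 608, 614 and 672 and 953, 1032 and 959. Timp2, an inhibitor of matrix metalloproteinases, read 246, 215 and 289 and 362, 418 and 362. The genotypes did not overlap in any of the 3, and the log2 fold changes were 1.17, 0.61 and 0.55 (adjusted p = 0.02, 0.041 and 0.041 from limma). The brightest Timp2 probe set was another and was not called (log2 fold change 0.41, limma adjusted p = 0.11). Gask1b, a Golgi-associated secreted kinase relative, stood at 0.94 (adjusted p = 0.041). Ccnd2, which encodes cyclin D2 of the G1 phase, read 672, 684 and 759 in WT DOX hearts and 1191, 1227 and 1607 in CHIP-altered DOX hearts. This is a log2 fold change of 0.89 (adjusted p = 0.04), and its 6 other probe sets were positive as well, from 0.14 to 0.79, but not called. Ppp1r14b, an inhibitor of protein phosphatase 1, read 261, 283 and 261 and 474, 487 and 398. With 0.69 (limma adjusted p = 0.017, and 0.049 without WT DOX replicate 2) it was still called without that array. It was not called without CHIP-altered DOX replicate 2, and its 2 other probe sets lay between -0.0035 and 0.20. Tmx2, a thioredoxin-like membrane protein of the endoplasmic reticulum, Dact3, an antagonist of Wnt signaling, and the kelch domain gene Klhdc8a had 0.73, 0.61 and 0.69. The 3 other Dact3 probe sets lay between -0.052 and 0.055.

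The lowest gene was Myot, whose protein myotilin crosslinks actin at the Z-disc. It read 1635, 1225 and 1075 in WT DOX hearts and 183, 161 and 212 in CHIP-altered DOX hearts (labelled CHIP knockout), a log2 fold change of -2.61 (SE 0.14, limma adjusted p = 0.00033). The call held when any 1 of the 6 DOX arrays was left out. Rpl3l, the form of ribosomal protein L3 that muscle uses, read 1623, 1082 and 1328 and 512, 600.5 and 348. Its spread was wide in both genotypes, and the log2 fold change of -1.42 (SE 0.25, limma adjusted p = 0.04) was not called without any single DOX array (adjusted p = 0.088 without WT DOX replicate 2). Tecrl, a protein of the endoplasmic reticulum linked to a heritable arrhythmia, read 1511, 2049 and 1614 in WT DOX hearts and 908, 991 and 793 in CHIP-altered DOX hearts. The highest CHIP-altered value was thus well under the lowest WT one. Cngb3, the beta subunit of the cyclic nucleotide channel of cones, read 67, 111 and 116 and 33, 29.3 and 42.8. At these low intensities the log2 fold change of -0.94 understates the ratio, because 32 was added to each value before log2.

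Of the lowered metabolic genes, Gnmt, the glycine methyltransferase that disposes of surplus S-adenosylmethionine, read 347, 191 and 224 in WT DOX hearts and 103, 107 and 79.8 in CHIP-altered DOX hearts (labelled CHIP knockout). WT DOX replicate 1 was far above the other WT hearts, and without WT DOX replicate 2 the gene was still called (log2 fold change -1.12 over all arrays, adjusted p = 0.025, and 0.032 without that array, from limma). Pnpla7, a lysophospholipase of the patatin family, read 235, 293 and 306 and 135, 112 and 111. Slc16a6, another member of the monocarboxylate transporter family, read 192, 234 and 216 and 97.8, 74.3 and 68.6. Slc16a6 and Slc16a7, of the same family, thus moved in opposite directions (-1.14 and 1.28 on the log2 scale). Slco3a1, an organic anion transporter, read 1089, 939 and 986 and 725, 537 and 476, and 1 of its 2 other probe sets had the opposite sign (0.25). Etfbkmt, which methylates the beta subunit of the electron transfer flavoprotein in mitochondria, read 140.4, 184 and 135 in WT DOX hearts and 71.6, 75.2 and 60 in CHIP-altered DOX hearts. Serpinb6b, a serine protease inhibitor with close paralogs in the mouse that share sequence, read 2119, 1746 and 1888 and 1039, 942 and 760.2. The lowest WT value was above the highest CHIP-altered one by a wide margin, and the log2 fold change was -1.05 (adjusted p = 0.016, and 0.044 without WT DOX replicate 2).

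The remaining lowered genes act in the cytoskeleton, in signaling, in membrane traffic or in the nucleus. Diaph2, a formin that nucleates actin filaments, read 179.9, 222 and 196 in WT DOX hearts and 78.3, 71 and 130.0 in CHIP-altered DOX hearts (labelled CHIP knockout). Arhgap20, a GTPase-activating protein, had a log2 fold change of -0.86 (limma adjusted p = 0.043), and its other probe set was called too (-0.96). Sema5a, a semaphorin of axon and vessel guidance, read 148, 181 and 141 and 78.5, 57.7 and 53.9, and its 3 other probe sets ranged from -1.18 to 0.00058 and were not called. Sh3rf2, a RING and SH3 domain protein, Rab11fip5, an effector of recycling endosomes, and Pbxip1, which binds PBX transcription factors, had -0.83, -0.80 and -0.85. Tmtc1, an enzyme that adds mannose to cadherins, read 228, 276 and 186 and 109.9, 124 and 68.1. Parp4, the poly(ADP-ribose) polymerase of vault particles, read 325, 369 and 341 in WT DOX hearts and 220.1, 180.4 and 172 in CHIP-altered DOX hearts. The log2 fold change of -0.76 (SE 0.084, adjusted p = 0.011) was called without WT DOX replicate 2 as well (adjusted p = 0.047). Hmgb2, a chromatin protein abundant in dividing cells, read 113, 148 and 88.8 and 64.7, 52.3 and 44.2. Cep128, a protein of the appendages of the mother centriole, read 209, 285 and 269 and 135, 135 and 138, and its 3 other probe sets ranged from -0.70 to -0.0044. The suffixes of the probe set names mark those of Cep128 and Abhd4 as ones that may bind other transcripts and those of Ak4 and Rab11fip5 as shared between transcripts.

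**Figure D2:**
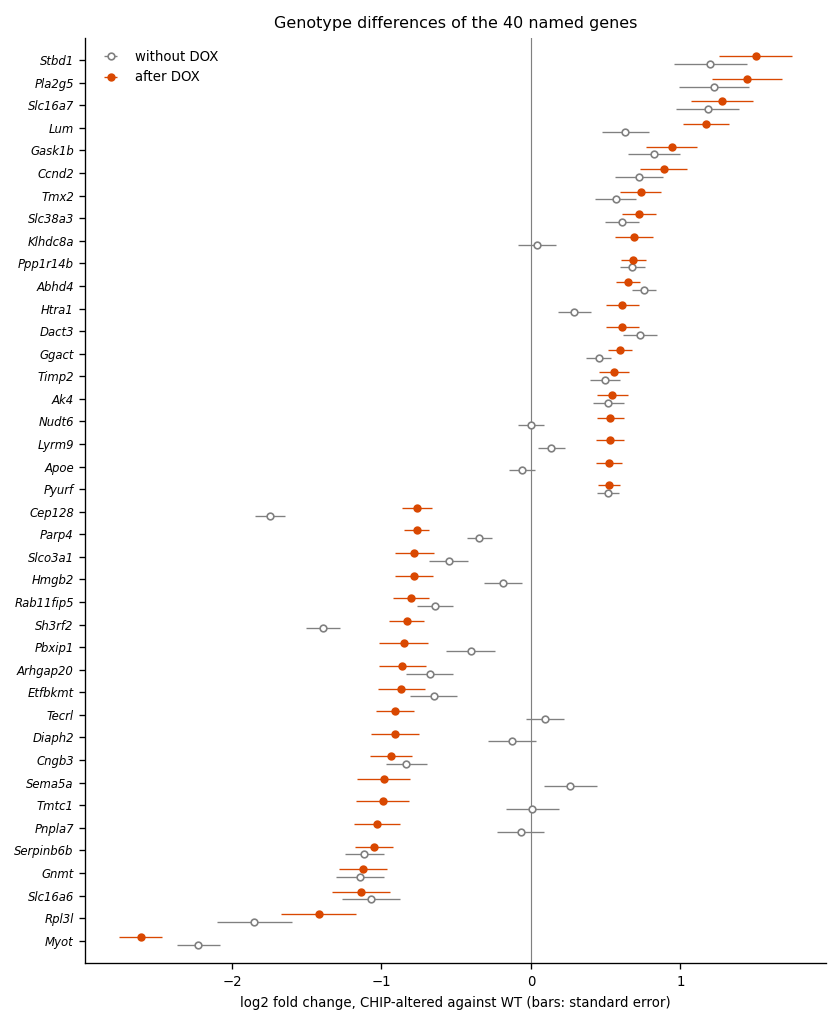
Log2 fold change of CHIP-altered (labelled CHIP knockout) against WT hearts for the 40 named genes, after DOX (filled) and without DOX (open), with bars for the standard error from limma. Most open points lie on the same side of 0 as the filled ones, while those of Pnpla7, Tmtc1, Tecrl, Nudt6, Klhdc8a and Apoe lie near 0.

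The same 40 genes were read on the 6 arrays without DOX. The values on these arrays did not enter the fold changes or the condition of no overlap by which the genes were chosen, but they did enter the spread behind each call. Of the 20 raised genes 18 had the same direction in CHIP-altered no DOX hearts (labelled CHIP knockout), and limma called 12 of them there. Of the 20 lowered genes 17 had the same direction and 9 of them were called. Over all probe sets 817 (1.81%) were called without DOX. The log2 fold changes without DOX were close to those after DOX for Abhd4 (0.75 and 0.65), Ppp1r14b (0.68 and 0.69), Gnmt (-1.15 and -1.12) and Serpinb6b (-1.11 and -1.05). Gnmt read 168, 159 and 158 in WT no DOX and 54.5, 56.3 and 55.8 in CHIP-altered no DOX hearts, a narrower spread than after DOX. Slc38a3 read 255, 196 and 207 and 341, 351 and 356, again with no overlap.

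Other genes differed between the genotypes after DOX, with values near 0 or of the opposite sign without it. Tecrl read 1031, 973 and 1015 in WT no DOX and 972, 1015 and 1258 in CHIP-altered no DOX hearts (labelled CHIP knockout), against 1511, 2049 and 1614 in WT DOX hearts and 908, 991 and 793 in CHIP-altered DOX hearts. All 3 WT DOX values thus lay above those of every other array. Pnpla7 had the same layout, with 123, 129 and 101 in WT no DOX and 141, 116 and 79.6 in CHIP-altered no DOX hearts. Sema5a read 44, 25.7 and 51.7 and 54.7, 38.1 and 72.7 without DOX, so its WT DOX values of 148, 181 and 141 lay above every other array. Tmtc1 read 85.1, 77.9 and 72.1 and 73.2, 67.1 and 99 without DOX. The interaction, which tests whether the genotype difference changed with DOX, came to -1.004 (SE 0.18) on the log2 scale for Tecrl, -1.25 (0.25) for Sema5a, -0.96 (0.22) for Pnpla7 and -1.002 (0.25) for Tmtc1. Among the raised genes Apoe read 816, 875 and 955 in WT no DOX and 913, 794 and 824 in CHIP-altered no DOX hearts, and Nudt6 read 139.7, 131 and 105 and 125, 126 and 122. Their interactions were 0.58 and 0.53. Cep128 showed the reverse, with 514, 462 and 438 in WT no DOX and 124, 124 and 106 in CHIP-altered no DOX hearts, a log2 fold change of -1.75 without DOX against -0.76 after it. After adjustment over all probe sets 0 interactions were called by limma (0.0%), with an adjusted p of 0.17 for Cep128, 0.26 for Tecrl and 0.42 for Tmtc1, while 3914 (8.69%) had an unadjusted p under 0.05. Of the 40 genes, 5 raised and 9 lowered ones were among the latter. These genes were chosen by their fold change after DOX, which is part of the interaction. Their count is therefore not to be read against the share of all probe sets.

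**Figure D3:**
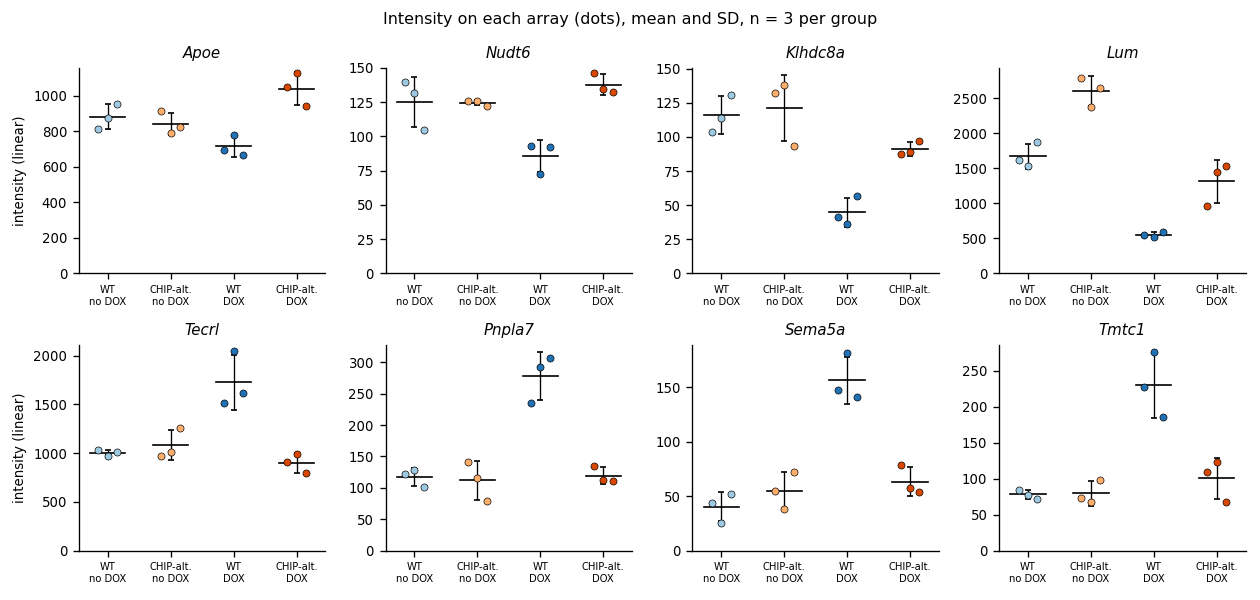
Intensity (linear scale, from 0) of 8 of the named genes across the 12 arrays. A dot is 1 array, and black lines are means and whiskers their SD, for 3 arrays each. In the lower row, as for Tecrl with 1511 to 2049, the WT DOX arrays lie above those of the other 3 groups, and Apoe and Nudt6 differ between the genotypes after DOX and overlap without it.

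For a wider view, 56 gene lists were read, 40 for pathways and 16 for cell types, with genes that the study lists left out and each gene taken on the brightest of its probe sets. Over all 18193 genes read in this way, 0.462% were called higher and 0.962% lower. Those with an unadjusted p under 0.05 were 8.91% on the higher and 9.86% on the lower side, and without overlap of the groups 12.8% and 10.2%. A mean above WT was found for 55.2% of genes, and the median log2 fold change was 0.010. The counts below are to be read against these shares, and no list was tested as a set. The lists do not hold every gene of a class, so a count of 0 speaks for the list alone.

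Most of the called genes of the contractile apparatus were lower in CHIP-altered DOX hearts (labelled CHIP knockout). The share called was 12.5% for Z-disc and costamere, 8.7% for sarcomere filament and 9.09% for calcium handling genes. Over all genes it was 0.462% higher and 0.962% lower, but the lists were written with earlier results of these data known. Of 24 Z-disc and costamere genes 3 were called lower and 0 higher, with a list median of -0.07. At an unadjusted p under 0.05 from limma, 7 were lower and 3 higher, and 9 lay wholly below and 2 wholly above WT. Their summed intensity was 85342 to 92026 in WT DOX hearts and 79641 to 81467 in CHIP-altered DOX hearts, without overlap. Besides Myot the called ones were Cavin4, a muscle caveola coat protein, and Xirp1, an actin-binding protein of intercalated discs. Cavin4 read 1059, 937 and 999 in WT DOX hearts and 735, 738 and 662 in CHIP-altered DOX hearts (log2 fold change -0.47, limma adjusted p = 0.037). Xirp1 read 826, 894 and 860.2 and 603, 585 and 664 (-0.46, adjusted p = 0.049). Of 23 sarcomere filament genes 2 were called, and both act at the pointed ends of the thin filament. Tmod1, which caps that end, was higher at 2408, 2553 and 2637 against 1976, 1998 and 1958 in WT DOX hearts (0.35, adjusted p = 0.023). Lmod2, a tropomodulin relative that lengthens thin filaments, was lower at 3796, 3653 and 3224 against 6061, 6328 and 5116 (-0.71, adjusted p = 0.04). The list median was -0.039. Of 22 calcium handling genes Tecrl and Jph1 were called lower. Jph1, a junctophilin that holds the sarcoplasmic reticulum to the surface membrane, read 313, 403 and 322 and 237, 198 and 163 (-0.71), and its other probe set was near 0 (-0.0041). In this list 9 genes lay wholly above and 3 wholly below WT, with a median of 0.017. None of 21 channel and connexin genes, 9 wall stress genes and 20 cardiac transcription factor genes was called. Kcng2, a potassium channel subunit that is not on the list, was called higher (0.47, adjusted p = 0.026), with -0.040 without DOX. The smallest p among the list members was that of Prox1, a transcription factor, at -0.54 (adjusted p = 0.056), with -0.73 without DOX.

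In the lists of energy metabolism, transport and ribosomal proteins the share of genes called ran from 0% to 12%. These lists too were written with earlier results known. Of 20 glycogen genes Stbd1 was called, and the list median was 0.07. Of 22 lipases and phospholipases, Pla2g5 was higher and Pnpla7 lower in CHIP-altered DOX hearts (labelled CHIP knockout), with a median of -0.0039. Of 25 monocarboxylate and amino acid transporters, Slc16a7 and Slc38a3 were higher and Slc16a6 lower. Of 20 genes of serine, one-carbon and methionine metabolism Gnmt was called. Sardh, the sarcosine dehydrogenase that takes up the product of Gnmt, stood at 0.44 (adjusted p = 0.071). None of 22 fatty acid oxidation genes was called after DOX, 18 of them having the lower mean in CHIP-altered hearts, and 4 were called without DOX, where 2.75% of all genes were (list medians -0.093 and -0.34). Of these Mlycd, the malonyl-CoA decarboxylase, read 850.2 ± 137 (SD, n = 3) in WT DOX hearts and 587 ± 124 in CHIP-altered DOX hearts (-0.52, adjusted p = 0.15). Among 19 glucose and glycolysis genes 14 had the higher mean and 0 were called on the brightest probe set. Pfkl, the liver form of phosphofructokinase, stood at 0.51 there (adjusted p = 0.06) and was called on another at 0.40 (adjusted p = 0.032). The 62 oxidative phosphorylation subunits of the list ranged from -0.22 to 0.20 with 0 called, while Ndufc2, a complex I subunit that the list does not hold, was called higher (0.41, adjusted p = 0.049). Of 74 mitochondrial ribosomal proteins 21 were higher at an unadjusted p under 0.05, with a median of 0.038. The called ones were Mrpl19, at 257, 251 and 316 in WT DOX hearts and 353, 384 and 396 in CHIP-altered DOX hearts (0.42), and Mrps18b, at 325, 346 and 375 and 264, 238 and 276 (-0.38). Rpl3l was the called one of 46 cytosolic ribosomal proteins, whose median was 0.049.

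Protein quality control is the field in which CHIP itself works. Of 31 ubiquitin ligases and conjugating enzymes, Ube2d3 was lower and Asb15 higher in CHIP-altered DOX hearts (labelled CHIP knockout) on their brightest probe sets. On other probe sets Cul3, a scaffold of cullin ligases, was called lower at -0.47 and -0.36 (limma adjusted p = 0.014 for both), as was the HECT ligase Nedd4l at -0.45 (adjusted p = 0.045). Their brightest ones, at -0.35 and -0.18, were not called. Genes of the same class that the list does not hold were called in both directions. Among the lower ones were the ligases Rnf114 (-0.58), Rnf115 (-0.43), Mkrn2 (-0.39) and Marchf7 (-0.54) and the conjugating enzyme Ube2j1 (-0.53). Among the higher ones were Marchf2 (0.32), Rnf11 (0.24), Fbxl8 (0.28), Fbxl16 (0.44) and Skp1 (0.27). Ube2d3, a conjugating enzyme of the UbcH5 family with which CHIP can pair, read 2117, 1946 and 2072 in WT DOX hearts and 1499, 1535 and 1537 in CHIP-altered DOX hearts (log2 fold change -0.42, SE 0.043, limma adjusted p = 0.0078). Its call held without each of the 6 DOX arrays, and 2 of its 6 other probe sets were called in the same direction. Asb15, a substrate adaptor of cullin ligases in muscle, read 1328, 1339.6 and 1223 and 1629.6, 1574 and 1686. Without DOX it was 1571, 1669.5 and 1615 in WT and 1547, 1315 and 1369 in CHIP-altered hearts, the opposite order, with an interaction of 0.52 (limma adjusted p = 0.23). Of 35 deubiquitinases on the list 30 had the lower mean, 12 at an unadjusted p under 0.05 and 15 with no overlap between the genotypes, and 0 were called. Their median of -0.13 ranged from -0.17 to -0.12 when each DOX array was left out, was -0.075 after quantile normalization, and was -0.05 without DOX. The lowest value of them was that of Usp54, -0.45 (adjusted p = 0.13), while Uchl1, a hydrolase that is abundant in neurons, stood at 0.36 (adjusted p = 0.15). Among deubiquitinases outside the list, Usp34 (-0.31, adjusted p = 0.040) and Brcc3 (-0.33, adjusted p = 0.042) were called lower and Mindy2 higher (0.18, adjusted p = 0.040). Of 40 proteasome subunits Psmb3, a subunit of the catalytic core, was called higher, at 1807, 1807 and 1854 in WT DOX hearts and 2129, 2064 and 2215 in CHIP-altered DOX hearts (0.22, adjusted p = 0.031). The list median was -0.038 and became 0.027 after quantile normalization. None of 36 chaperones and cochaperones on the list was called, with Hspb3, a small heat shock protein of muscle, at 0.59 (adjusted p = 0.071) and -0.084 without DOX. The chaperonin subunit Cct2 (-0.22) and the J protein Dnajb12 (-0.24), outside it, were called lower. Genes outside the lists were singled out after their values were seen.

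In the lysosome, Ctsb, the protease cathepsin B, was the called gene among 30 genes of autophagy and lysosome, at 2394, 2421 and 2634 in WT DOX hearts and 3270.4, 3756 and 3298 in CHIP-altered DOX hearts (labelled CHIP knockout). This is a log2 fold change of 0.46 (limma adjusted p = 0.032). Sqstm1, the autophagy receptor p62, stood at -0.63 and missed the threshold (adjusted p = 0.056). Insr, the insulin receptor, was called lower among 25 genes of FoxO and insulin signaling. It read 1623, 1769 and 1868 in WT DOX hearts and 1323, 1113 and 1034 in CHIP-altered DOX hearts (-0.59, adjusted p = 0.042), and its 2 other probe sets were also negative and not called. Of 27 ATF4 targets, genes of the amino acid stress response, Eif4ebp1 was lower. Eif4ebp1 encodes the translation repressor 4E-BP1 and read 2654, 2901 and 3179 and 1893, 1796 and 1688 (-0.69, adjusted p = 0.037), with both other probe sets at -0.85 and -0.68. Of 27 antioxidant, glutathione and NRF2 genes Gstm2, a glutathione transferase, was higher at 1495, 1547 and 1386 against 1205, 1059 and 1146 in WT DOX hearts (0.37, adjusted p = 0.049). Gpx4, which reduces lipid hydroperoxides, stood at 0.33 (adjusted p = 0.06), and the list median was 0.081. None of 28 p53 targets, 24 genes of the BCL2 family and caspases, and 28 genes of the gp130, STAT3 and ERK pathway outside the study's lists was called. The smallest p-values there were those of Sesn2 (0.27, adjusted p = 0.056), Bnip3 (-0.53, adjusted p = 0.096) and Etv5 (-0.66, adjusted p = 0.1).

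Matrix genes and fibroblast markers lay higher together in CHIP-altered DOX hearts (labelled CHIP knockout). Of 42 collagens and other matrix proteins 33 had the higher mean and 11 of these an unadjusted p under 0.05. Lum was called on the brightest probe set and Timp2 on another. The list median was 0.17 after DOX and 0.33 without it. Col15a1, a basement membrane collagen, read 68.1 ± 9.20 (SD, n = 3) in WT DOX hearts and 146 ± 24.5 in CHIP-altered DOX hearts (0.83, limma adjusted p = 0.057). All 11 fibroblast markers, Lum and Col15a1 among them, had the higher mean, with a median of 0.29 after DOX (0.22 to 0.41 with each DOX array left out) and 0.32 without it. Their summed intensity was 15809 to 18048 in WT DOX hearts and 18371 to 20496 in CHIP-altered DOX hearts, without overlap, and none was at a mean under 32. Of 15 macrophage markers 10 had the higher mean, 0 were called and the median was 0.24. Their sum was 3891 to 5432 in WT DOX hearts and 5536 to 6695 in CHIP-altered DOX hearts. Both sums were higher in CHIP-altered DOX hearts, as were Lum, Timp2, Htra1, Apoe and Ctsb, genes that these cells also express. Lum is itself a fibroblast marker and thus part of that sum. The part of these cells in the rises was not tested. In whole hearts, more cells of a type and more RNA per cell cannot be told apart.

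All 11 endothelial markers had the lower mean in CHIP-altered DOX hearts (labelled CHIP knockout), with a median of -0.17, but 0 of them had an unadjusted p under 0.05 and the sums overlapped (15829.5 to 17635 in WT DOX hearts and 14504 to 16017 in CHIP-altered DOX hearts). Of 9 smooth muscle markers 3 had an unadjusted p under 0.05 with a lower and 1 with a higher mean, and of 8 pericyte markers 1 did so with a lower mean. The medians of these lists were -0.19 and -0.16 (0.21 and -0.065 without DOX), and 0 of their genes were called. Of the smooth muscle markers 4 had the higher mean, up to 0.89 on the log2 scale, and their sums overlapped, at 8583 to 10789.8 in WT DOX hearts and 9047 to 9805 in CHIP-altered DOX hearts. Markers of T and NK cells and of B cells were dim, 7 of 10 and 5 of 6 having a mean under 32.

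No gene was called on the interferon and glucocorticoid lists. Of 25 interferon-stimulated genes 21 had the higher mean in CHIP-altered DOX hearts (labelled CHIP knockout), with a median of 0.15 that was 0.046 without WT DOX replicate 2 and lay between 0.038 and 0.23 over the 6 arrays left out in turn. Oas2 and Ifi27 had the smallest p-values there, with log2 fold changes of 0.26 and 0.50 (adjusted p = 0.24 and 0.34 from limma). Of 15 glucocorticoid response genes 13 had the lower mean, with a median of -0.30 that ranged from -0.52 to -0.16 when each DOX array was left out and was -0.18 without WT DOX replicate 2. Sult1a1, a sulfotransferase, had the smallest p of this list, with 3504, 3945 and 2477 in WT DOX hearts and 2049, 1805 and 1147 in CHIP-altered DOX hearts (-0.99, adjusted p = 0.094). Its groups did not overlap, but WT DOX replicate 3 was well under the other WT hearts.

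**Figure D4:**
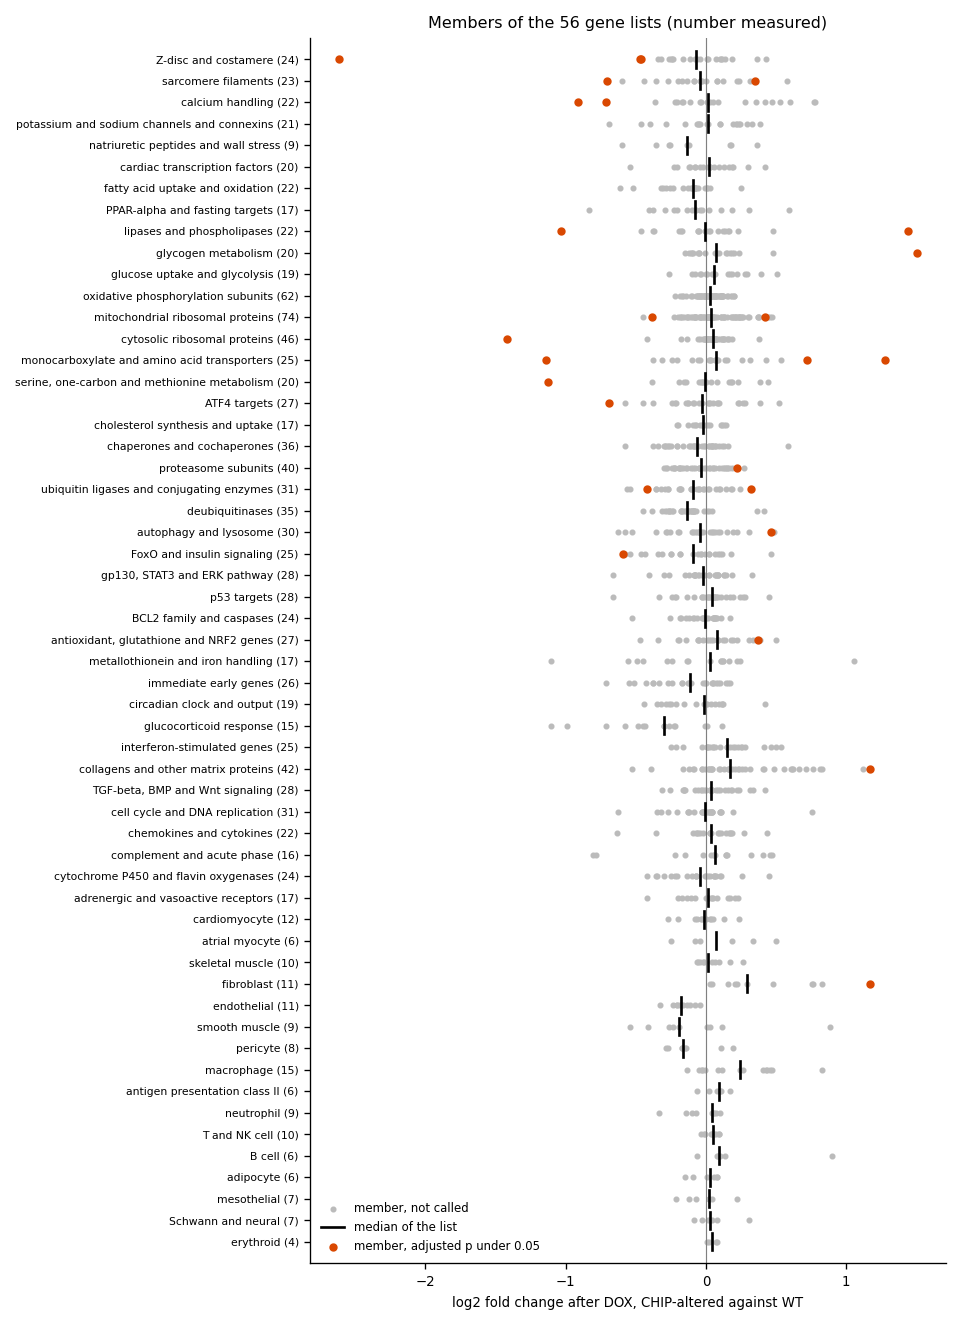
Log2 fold change after DOX of CHIP-altered (labelled CHIP knockout) against WT hearts for the measured members of 56 gene lists, with the number measured after each name. Grey dots are members that were not called, filled orange dots members with an adjusted p under 0.05 from limma and black bars list medians, which lie near 0 for most lists, highest for fibroblast markers (0.29) and lowest for the glucocorticoid response (-0.30).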

How the data were processed

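Heart RNA was measured on 12 arrays, which were put in 4 groups of 3 by their titles alone. The deposited values are linear intensities per probe set, made by the authors with Affymetrix Expression Console per the labels' processing notes. The summary method and the version are not given in the sources used here. Array medians lay between 28.9 and 30.4, and 51.4% of probe sets had a mean under 32, where differences are measured with less certainty. Of 45037 probe sets 34945 name 1 gene, 932 several and 9160 none, and 34741 were matched by Entrez ID to RefSeq names of GRCm38.p6.

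The value 32 was added before log2. Limma 3.58.1 (R 4.3.3) estimated 1 mean per group from all 12 arrays, with eBayes and no trend. Two-sided p-values were corrected by the Benjamini-Hochberg method over the 45037 probe sets, and called means an adjusted p under 0.05. A fold change on this scale understates that of dim genes. The p-values set a difference against the spread between these arrays, and whether an array holds RNA of 1 heart is not given. On simulated data, 33 of 67 probe sets changed 1.5-fold, 60 of 67 changed 2-fold and 65 of 66 changed 4-fold were recovered. There were 8 false calls. These counts hold for the simulated data alone. Recovery on the measured arrays, dim probe sets included, was not tested.

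Genes listed by the study were left out, 101 of 105 being found on the array. Named are the 20 higher and 20 lower called genes ranked by log2 fold change, among probe sets with 1 gene and without overlap, and of each gene list every called member and the 2 with the smallest p. Of 1364 list entries 1213 were measured outside the study's genes. The comparison, members and lists were chosen with earlier results of these data known. Alternatives were another normalization, added value, filter, variance model, weighting, threshold, block and sample set, and the Student's test of the methods. Python 3.11.15, pandas 2.3.3 and matplotlib 3.10.9 were used.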

Additional observations from a re-analysis of the deposited data

How the results depend on the processing

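With 3 arrays per group, their number limits every value. After DOX, 424 probe sets were called (131 higher, 293 lower). Limma on the 6 DOX arrays alone called 2 (2 higher, 0 lower), array weights gave 720 (245 and 475), a mean intensity of at least 64 gave 727 (239 and 488) and an adjusted p under 0.1 gave 1377 (527 and 850). Quantile normalization gave 495, of which 233 were higher (47.1% of calls against 30.9%) and 262 lower. The methods' t-test gave 5292 at an unadjusted p under 0.05 (2878 and 2414) and 0 after Benjamini-Hochberg adjustment (0 and 0). Leaving out single DOX arrays gave 19 to 893 probe sets, 2 to 264 higher and 17 to 629 lower. With single arrays without DOX left out, an alternative chosen after seeing the data, 135 to 721 were called after DOX, 36 to 270 higher and 99 to 451 lower. The alternatives not named here stayed within 1.5 times the count. Without DOX, 817 were called, 206 on the 6 arrays alone, 1414 with array weights, 1357 with the filter, 1730 at an adjusted p under 0.1 and 84 to 1206 with single arrays without DOX left out (560 to 893 with single DOX arrays left out). The interaction was called for 0 probe sets, for 5 with array weights, 3 with the filter, 4 with a trended and robust variance, 6 at an adjusted p under 0.1 and 0 to 2 with single arrays left out. The causes of these shifts were not tested beyond the fewer arrays or probe sets used. All 40 named genes kept their direction in every alternative that tested them. The condition of no overlap had fixed this in advance, except where arrays were normalized anew. Of the 40, all 40 were called with 16 added and 33 with 64 added. The uncalled marker genes Gfra3 and Hba-a1 changed sign. Gfra3 was at -0.018 without WT DOX replicate 2 and ran up to 0.18 with other arrays left out. Hba-a1 was at -0.013 after array medians were subtracted, -0.0059 after quantile normalization, and -0.0089 to 0.019 with single arrays left out. For the replicate block, deviations of same-numbered DOX arrays from their group means correlated at 0.0090, -0.20 and 0.15, so the numbers were not taken as pairs. With the replicate number as a block 336 probe sets were called after DOX (98 higher, 238 lower), 832 without DOX and 0 for the interaction, and 25 of the 40 genes were called.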

Other observations

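Genes called after DOX were also read by their place on the chromosomes. Of 345 called genes that could be placed, 10 pairs were direct neighbours, out of 18122 pairs of neighbouring genes on the array, and 6 of the 10 had the same direction. All 6 were lower in CHIP-altered DOX hearts (labelled CHIP knockout), as were most called genes (226 of the 324 outside the study's lists). They were Trnt1, a tRNA-tailing enzyme, with Crbn, the substrate receptor cereblon of a cullin ligase (log2 fold changes of -0.38 and -0.79, limma adjusted p = 0.045 and 0.0085), Xpo1, the main nuclear exporter, with the deubiquitinase gene Usp34 (-0.59 and -0.31) on a dim probe set, at a mean of 29.1 in WT DOX hearts, Etfbkmt with Amn1 (-0.87 and -0.46), Prelid2 with Sh3rf2 (-0.57 and -0.83), Cherp with Slc35e1 (-0.31 and -0.28) and Znhit6 with Ccn1, which the study lists. Both probe sets of Crbn were called, the other one at -0.68 (limma adjusted p = 0.0068). The thin filament gene Lmod2 and the ligase adaptor gene Asb15 are neighbours that moved in opposite directions (-0.71 and 0.32). These pairs were singled out after their values were seen, and no test of neighbourhood was made. How many such pairs would arise among called genes placed at random was not worked out, so the count is a description only.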
